A study of Mus musculus with 4 samples.

Results

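The chemokine receptor transcripts Ccr1, Ccr2, Ccr3, Ccr7, Ccrl2, Cxcr4 and Cx3cr1 were examined in mouse bone marrow-derived macrophages before and after lipopolysaccharide (LPS). The 7 genes were chosen by name among 54532 genes in the deposited table, and each was found there once. The marrow came from femurs and tibias of C57BL/6 mice that were 6 to 8 weeks old. It was cultured for 6 days with 10% serum and 20% medium conditioned by L929 cells, a fibroblast line that secretes macrophage colony-stimulating factor. All mice carried FBXW7f/f, that is, Fbxw7 alleles flanked by loxP sites. The mice of the libraries titled KO carried LysM-cre in addition, per the design text. LysM-cre is a Cre recombinase placed in the lysozyme gene Lyz2, so that deletion is limited to myeloid cells and need not reach every cell. There was 1 library each for WT untreated, KO untreated, WT after 3 h of LPS and KO after 3 h of LPS. For the LPS dose, and for how many mice a library stands for, nothing was found in the sources used here.

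Chemokine receptors are G protein-coupled receptors of the cell surface that steer leukocytes along gradients of small secreted chemokines. Blood monocytes use Ccr2 to leave the marrow and enter inflamed tissue, Cx3cr1 marks patrolling monocytes and many tissue macrophages, and Cxcr4 holds cells in the marrow. Ccr1 and Ccr3 bind overlapping sets of inflammatory CC chemokines, and Ccr3 is best known from eosinophils. Ccr7 guides mature dendritic cells to lymph nodes. Ccrl2 is an atypical receptor that binds the chemoattractant chemerin and is not known to signal through G proteins.

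Total counts were 17610372 to 23835940 per library. A level is given in CPM, the depth-scaled count, after scaling by edgeR's TMM factors, and ranges in parentheses are exact 95% Poisson intervals of the level, or binomial intervals of a ratio of 2 libraries, which cover counting error only. With 1 library per group no difference between 2 libraries has a replicate check. Such a ratio was called when it reached 2-fold with a prior count of 2, its interval excluded no change and the gene averaged at least 1 CPM, which 6 of the 7 receptors did, Ccr7 being the exception. The titles are open to doubt. The genotype tags of the samples go against the titles, giving FBXW7f/f for both untreated libraries and LysM-cre FBXW7f/f for both LPS libraries, so that by the tags genotype and treatment cannot be told apart. Fbxw7, the targeted gene, stood at 17.9 and 17.2 CPM in the untreated libraries titled WT and KO and at 9.90 and 11.7 CPM after LPS, and a count over the whole gene need not show the deletion of a part of it. Lyz2, the gene that holds the Cre, stood at 15253, 8711, 9917 and 18238 CPM in WT untreated, KO untreated, WT LPS and KO LPS. Lyz1, the neighbour of Lyz2, stood at 2.86 CPM in WT untreated, 32.9 CPM in KO untreated, 33.1 CPM in WT LPS and 2.63 CPM in KO LPS. Lyz1 thus joined KO untreated with WT LPS, against the titles. Lyz2 paired the same libraries, in the other direction. It was 1.75-fold lower in KO than in WT untreated and 1.84-fold higher in KO than in WT after LPS, both short of the 2-fold call. Directions below are between the libraries titled so, and none can be repeated without a doubted library, since each group has 1.

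The defining genes of macrophages were present in every library. All 7 markers used (Csf1r, Adgre1, Cd68, Mertk, Fcgr1, Itgam and Cd14) were detected, with a summed level between 6201 and 10649 CPM. Summed levels of the other marker lists ranged from 28.5 to 58.9 CPM for monocytes, 4.34 to 31.3 CPM for neutrophils, 9.96 to 31.6 CPM for B cells (1 of 4 markers detected), 3.51 to 8.30 CPM for eosinophils and 2.13 to 13.7 CPM for dendritic cells. T cell, mast cell and basophil, and fibroblast lists lay between 0.363 and 6.06 CPM. The T cell list was higher after LPS, but only 1 of its 5 markers, Lck, was detected, so the rise rests on 1 gene. Sums of the T cell list were 0.363, 0.615, 3.20 and 6.06 CPM in WT untreated, KO untreated, WT LPS and KO LPS. In bulk RNA a lower level can come from fewer cells of a type or from less RNA per cell, and these cannot be told apart.

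Of the 7 receptor genes 5 lie on chromosome 9 (mm10), with Cxcr4 on chromosome 1 and Ccr7 on chromosome 11. Ccr1 (ENSMUSG00000025804, chromosome 9, 123962124 to 123968692, minus strand), Ccr3 (ENSMUSG00000035448, 124021972 to 124031689, plus strand) and Ccr2 (ENSMUSG00000049103, 124101950 to 124113557, plus strand) are near neighbours, with 53.3 kb between Ccr1 and Ccr3 and 70.3 kb between Ccr3 and Ccr2. Ccrl2 (ENSMUSG00000043953, chromosome 9, 111054486 to 111057519) and Cx3cr1 (ENSMUSG00000052336, chromosome 9, 119901616 to 120069879) lie apart from that cluster, both on the minus strand. Cxcr4 (ENSMUSG00000045382) spans 128588199 to 128592293 of chromosome 1 and Ccr7 (ENSMUSG00000037944) spans 99144196 to 99155077 of chromosome 11, both on the minus strand. GENCODE M21 placed all 7 at the same positions. Exons of 6 of them overlapped no exon of another gene, and Cx3cr1 shared 78 of its 4505 exonic bases with a gene on the opposite strand. Exact stretches of 50 bases shared with transcripts of other genes made up 1.91% of those of Ccr2 and 0.269% of those of Cx3cr1, and the other 5 receptors had 0 such stretches.

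The promoters of 4 receptors are shown because each stands for one of the patterns described below: Ccrl2 for the gene that was high after LPS in both titles, Cxcr4 for the one that was high in both untreated libraries, and Ccr1 and Ccr3 for neighbours that were high in KO untreated and WT LPS. Each sequence is the 250 bases before the RefSeq start on GRCm38.p6, 5′ to 3′ on the strand of the gene. The windows are chr9:111057519-111057768 (minus strand), chr1:128592300-128592549 (minus), chr9:123968693-123968942 (minus) and chr9:124021721-124021970 (plus). Capitals mark matches to 5 motifs: GGG and CC with 5 bases between them, a loose form of the NF-κB site, TGANTCA, the AP-1 site, a pair of GAAA with 2 bases between them, the core of the interferon-stimulated response element, TTGCNNCAA, a C/EBP site, each on both strands, and TATAAA on the given strand.
Ccrl2: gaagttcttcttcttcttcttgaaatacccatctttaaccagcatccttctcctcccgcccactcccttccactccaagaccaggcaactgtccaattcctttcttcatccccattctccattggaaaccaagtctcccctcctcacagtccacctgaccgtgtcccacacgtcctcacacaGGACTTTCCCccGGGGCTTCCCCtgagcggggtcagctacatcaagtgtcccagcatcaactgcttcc
Cxcr4: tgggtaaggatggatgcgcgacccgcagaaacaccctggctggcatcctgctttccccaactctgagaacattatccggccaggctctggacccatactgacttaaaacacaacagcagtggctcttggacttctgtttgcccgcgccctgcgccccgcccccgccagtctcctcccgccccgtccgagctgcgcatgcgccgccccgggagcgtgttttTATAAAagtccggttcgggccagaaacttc
Ccr1: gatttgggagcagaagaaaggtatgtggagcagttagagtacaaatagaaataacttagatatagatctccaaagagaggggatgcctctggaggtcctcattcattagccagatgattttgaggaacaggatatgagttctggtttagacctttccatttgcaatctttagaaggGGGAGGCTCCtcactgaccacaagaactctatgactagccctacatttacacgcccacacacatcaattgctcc
Ccr3: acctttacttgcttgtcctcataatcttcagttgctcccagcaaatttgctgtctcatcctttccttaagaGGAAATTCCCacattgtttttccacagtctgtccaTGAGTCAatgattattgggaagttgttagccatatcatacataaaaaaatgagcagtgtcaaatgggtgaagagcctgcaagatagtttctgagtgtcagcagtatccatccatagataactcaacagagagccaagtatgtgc
The Ccrl2 window, before the first of 3 RefSeq starts, held an NF-κB-type match from 68 to 59 bases before the start and overlapping ones from 56 to 46. The windows before the other Ccrl2 starts, not shown, held no match to any of the 5 motifs. Ccr1 had 1 such match, from 74 to 65 bases before the start. Ccr3 had 1 from 179 to 170 bases before it, and an AP-1 match from 144 to 138. The Cxcr4 window had a TATAAA from 30 to 25 bases before the start and no match to the other 4 motifs. It had a GC content of 61.2% and 19 CG dinucleotides, against 43.6% and 1 for Ccr1, 40.4% and 0 for Ccr3 and 54% and 5 for Ccrl2, with medians of 52.4% and 6 over all 32851 RefSeq windows. Of those windows 45.8% held the loose NF-κB motif, 6.75% the AP-1 motif, 7.59% TATAAA, 2.98% the interferon motif and 1.74% the C/EBP motif. A match is a string of letters and not a measured site. RefSeq windows were at hand for 6 of the 7 genes. The Ccr2 window, not shown, held no match to any of the 5 motifs, although Ccr2 is a neighbour of Ccr1 and Ccr3. The Cx3cr1 window, not shown, held an NF-κB-type match (GGTTTGCCCC), although Cx3cr1 was all but lost after LPS. Such matches were thus not limited to receptors that were higher after LPS, and a link between motifs and levels was not tested.

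**Figure D1:**
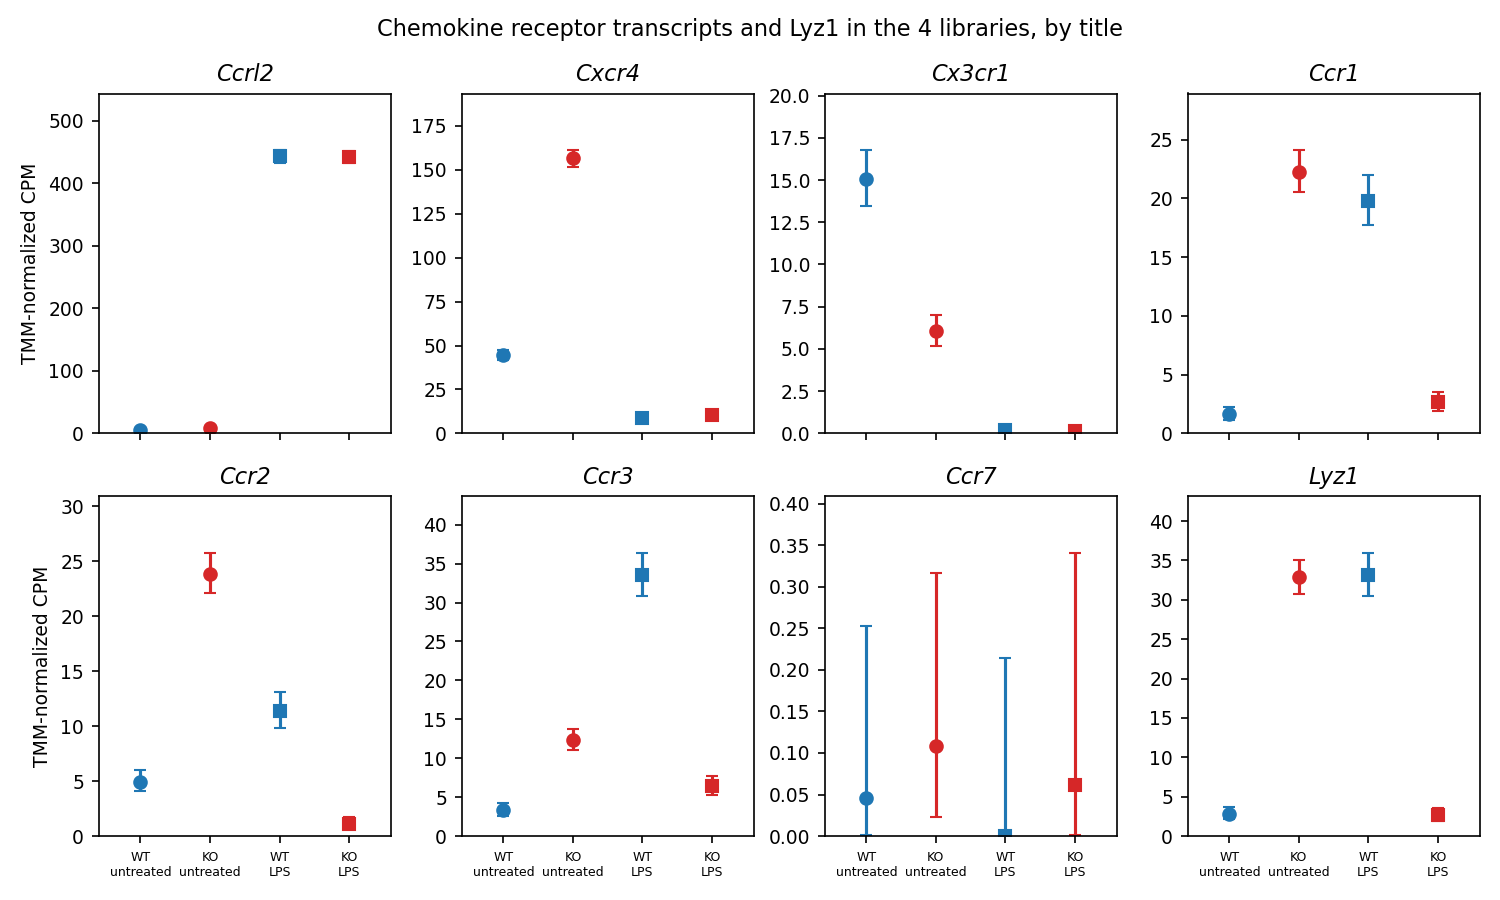
Level of each receptor and of Lyz1 in TMM-normalized CPM (linear axes from 0, a scale of its own for each gene) in the 4 libraries by title, circles untreated and squares LPS, blue WT and red KO, with 95% Poisson intervals. Ccrl2 was near 442 CPM in both LPS libraries, Cxcr4 and Cx3cr1 were high in both untreated libraries, and Ccr1 followed Lyz1, high in KO untreated and WT LPS.

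Ccrl2, the chemerin-binding atypical receptor, was the receptor gene that was far higher after LPS under either title. It had 117 counts (5.31 CPM, 4.39 to 6.36) in WT untreated and 260 counts (9.40 CPM, 8.29 to 10.6) in KO untreated. After LPS it had 7603 counts (442.7 CPM, 432.8 to 452.8) in WT and 7218 counts (441.7 CPM, 431.5 to 452) in KO. The LPS libraries thus stood far above both untreated libraries and their intervals overlapped each other. Ccrl2 was 83.4-fold (69.5 to 101) higher after LPS in the libraries titled WT and 47.0-fold (41.5 to 53.4) higher in those titled KO. After LPS the KO to WT ratio was 0.998 (0.966 to 1.03), the ratio nearest to 1 among the receptors. Untreated, the KO library was 1.77-fold (1.42 to 2.22) above the WT library, short of the 2-fold call.

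Cxcr4, the receptor for Cxcl12, was the most abundant receptor before LPS and low after it. It had 987 counts (44.8 CPM, 42.0 to 47.6) in WT untreated and 4327 counts (156 CPM, 152 to 161) in KO untreated. After LPS it had 152 counts (8.85 CPM, 7.50 to 10.4) in WT and 170 counts (10.4 CPM, 8.90 to 12.1) in KO. Both LPS libraries were therefore below both untreated libraries, and the LPS libraries overlapped each other. The LPS library was 5.06-fold (4.26 to 6.04) lower under the WT title and 15.0-fold (12.9 to 17.6) lower under the KO title. The larger ratio went with the higher untreated level: KO untreated was 3.50-fold (3.26 to 3.75) above WT untreated, while after LPS the KO to WT ratio was 1.18 (0.939 to 1.47).

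Cx3cr1, the receptor for fractalkine, was all but lost after LPS. It had 332 counts (15.1 CPM, 13.5 to 16.8) in WT untreated and 167 counts (6.04 CPM, 5.16 to 7.03) in KO untreated, then 3 counts (0.175 CPM, 0.0360 to 0.511) in WT LPS and 2 counts (0.122 CPM, 0.0148 to 0.442) in KO LPS. The LPS libraries lay far below both untreated ones and could not be separated from each other. The fold lower after LPS was 86.2 (29.2 to 420) under the WT title and 49.3 (13.4 to 411) under the KO title, with wide intervals because of the few LPS counts. Untreated, Cx3cr1 was 2.49-fold (2.06 to 3.02) lower in the library titled KO, the opposite direction to Ccr1, Ccr2, Ccr3 and Cxcr4 in the same comparison.

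A model over all 4 libraries with an LPS effect and a genotype title effect gave the one test of the LPS response. In edgeR's quasi-likelihood test Ccrl2 rose by 6.00 ± 0.36 log2 units (± is the SE implied by the F statistic; Benjamini-Hochberg adjusted p = 0.00458). Cx3cr1 changed by −6.01 ± 0.54 (edgeR adjusted p = 0.00654) and Cxcr4 by −3.09 ± 0.43 (edgeR adjusted p = 0.0162). So 1 of 6 fitted receptors rose and 2 fell, beside 9.35% of 13989 genes that rose and 5.14% that fell. Each of the 3 receptors moved in that direction under both titles. The median LPS effect of the fitted receptors was −0.58, against −0.05 over all genes fitted. The other receptors did not pass: Ccr1 had 0.26 ± 2.19, Ccr2 −1.41 ± 1.65 and Ccr3 1.21 ± 1.18, with edgeR adjusted p of 0.946, 0.579 and 0.507. The sign of the Ccr1 effect was not stable, at −0.31 with library totals. The model has 1 residual degree of freedom and takes its spread from departures from additivity, and the LPS ratios of these 3 genes had opposite signs under the 2 titles. No receptor passed for the genotype title effect, beside 0.0% of genes in either direction. At an unadjusted p under 0.05 that effect held 0 of 6 receptors and 39 of 13989 genes in this edgeR fit. It held 1 of 7 receptors and 33 of 25648 genes in DESeq2, and 2 of 6 receptors and 62 of 13989 genes in limma-voom. Refits in edgeR held 1 receptor and 38 of 13989 genes with DESeq2 size factors and 1 and 43 of 13989 with library totals. They held 2 and 144 of 25648 without the filter and 0 and 36 of 12326 at a mean of at least 1 CPM. With 1 residual degree of freedom, such small counts do not show that the title had no effect.

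Ccr1, a receptor of Ccl3, Ccl5 and related inflammatory chemokines, was high in KO untreated and WT LPS and low in the other libraries. It had 36 counts (1.63 CPM, 1.14 to 2.26) in WT untreated, 616 counts (22.3 CPM, 20.5 to 24.1) in KO untreated, 339 counts (19.7 CPM, 17.7 to 22.0) in WT LPS and 43 counts (2.63 CPM, 1.90 to 3.54) in KO LPS. The high libraries overlapped each other, the low ones overlapped each other, and no high interval reached a low one. Ccr1 was 12.1-fold (8.56 to 17.6) higher after LPS under the WT title and 8.47-fold (6.21 to 11.8) lower under the KO title. It was 13.6-fold (9.74 to 19.7) higher in KO than in WT untreated and 7.50-fold (5.45 to 10.6) lower in KO than in WT after LPS.

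Ccr2, the receptor of the monocyte chemoattractants Ccl2, Ccl7 and Ccl12, was also highest in KO untreated. It had 109 counts (4.94 CPM, 4.06 to 5.96) in WT untreated, 660 counts (23.9 CPM, 22.1 to 25.8) in KO untreated, 196 counts (11.4 CPM, 9.87 to 13.1) in WT LPS and 18 counts (1.10 CPM, 0.653 to 1.74) in KO LPS. All 4 intervals were separate. The WT-titled pair was 2.31-fold (1.82 to 2.95) higher after LPS and the KO-titled pair 21.7-fold (13.6 to 36.8) lower. KO was 4.83-fold (3.94 to 5.97) above WT untreated and 10.4-fold (6.39 to 17.9) below it after LPS. The call of 2.31-fold was lost when library totals replaced TMM, where the log2 ratio was 0.59. It was also lost at a 3-fold threshold and in FPKM with a pseudocount of 1, where the log2 ratio was 0.65.

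Ccr3, which binds eotaxins, was highest in WT LPS. It had 74 counts (3.36 CPM, 2.64 to 4.21) in WT untreated, 341 counts (12.3 CPM, 11.1 to 13.7) in KO untreated, 576 counts (33.5 CPM, 30.9 to 36.4) in WT LPS and 105 counts (6.42 CPM, 5.25 to 7.78) in KO LPS. As for Ccr1, KO untreated and WT LPS stood above the other libraries, but here all 4 were separate. Ccr3 was 9.99-fold (7.83 to 12.9) higher after LPS under the WT title. Under the KO title it was 1.92-fold (1.54 to 2.41) lower, just short of the call, and with library totals the log2 ratio was −1.39 and was called. KO was 3.67-fold (2.85 to 4.79) above WT untreated and 5.22-fold (4.23 to 6.49) below it after LPS. The eosinophil markers Epx, Ear1 and Ear6 had 0 counts in all libraries, and Siglecf stood at 8.16, 2.96, 4.54 and 4.41 CPM in WT untreated, KO untreated, WT LPS and KO LPS.

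Ccr7, the lymph node homing receptor, was at the limit of detection. It had 1 count in WT untreated, 3 in KO untreated, 0 in WT LPS and 1 in KO LPS, and the highest upper bound of the 4 levels was 0.341 CPM. No difference was detectable at this depth, and no fold is given. Of the dendritic cell markers, Cd209a had 0 counts throughout and Xcr1, itself a chemokine receptor, stood at 0.454, 0.904, 12.9 and 8.81 CPM in the order WT untreated, KO untreated, WT LPS and KO LPS. Zbtb46, a transcription factor of conventional dendritic cells, had 19, 16, 1 and 4 counts in that order (LPS effect −2.20 ± 0.92 log2 units, edgeR adjusted p = 0.175, not passed). Clec9a and Itgae had at most 11 and 18 counts in a library, and Flt3 and Siglech at most 9 and 2.

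**Figure D2:**
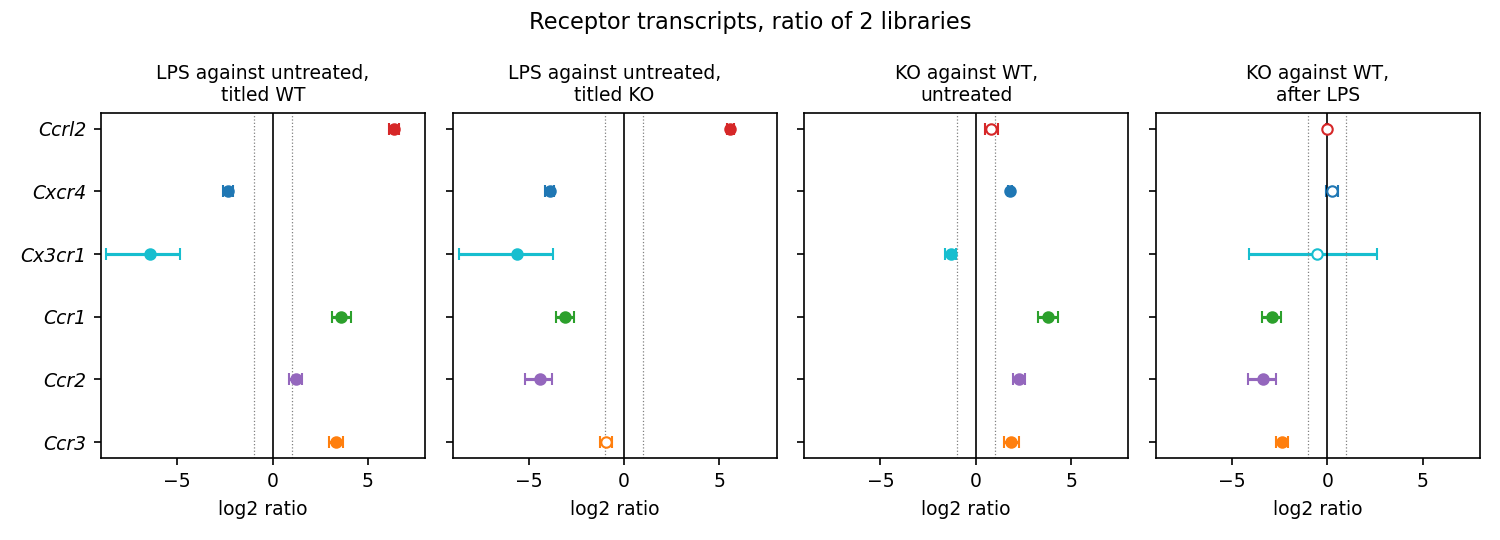
Ratio of normalized counts of 2 libraries (log2 axis) for the 6 receptors above 1 CPM in each of the 4 comparisons, with 95% binomial counting intervals; filled symbols passed the 2-fold rule and dotted lines mark 2-fold. Ccr1, Ccr2 and Ccr3 lay to the right for KO against WT untreated and to the left after LPS, while Ccrl2 and Cxcr4 lay near 0 after LPS.

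Set side by side, 4 of the 6 receptors above 1 CPM were called higher after LPS under the WT title (Ccr1, Ccr2, Ccr3 and Ccrl2). Another 2 were called lower (Cxcr4 and Cx3cr1), beside 15.4% and 15.0% of the 12326 genes above 1 CPM. Under the KO title 1 was called higher (Ccrl2) and 4 lower (Ccr1, Ccr2, Cxcr4 and Cx3cr1), beside 14.6% and 17.8% of genes. The median log2 ratio of the 6 receptors above 1 CPM was 2.24 under the WT title and −3.47 under the KO title, with −0.01 and −0.07 over all genes. Between untreated libraries 4 receptors were higher under the KO title (Ccr1, Ccr2, Ccr3 and Cxcr4) and Cx3cr1 was lower, beside 3.16% and 2.03% of genes. After LPS 0 were higher and 3 lower under the KO title (Ccr1, Ccr2 and Ccr3), beside 3.42% and 4.81% of genes. The receptor medians were 1.83 untreated and −1.34 after LPS. Each library enters 2 of these 4 comparisons, so they are not independent of each other. Scaling by library totals moved the all-gene median after LPS to −0.63 under the WT title and −0.55 under the KO title, and calls of higher genes fell from 50.7% to 22.2% and from 45.04% to 22.6% of calls. Untreated, 60.9% of KO against WT calls were higher with TMM and 48.4% with library totals.

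The LPS responses of the 2 titles share no library and can be set against each other gene by gene. Ccr1 and Ccr2 were called higher under the WT title and lower under the KO title, a pattern that 0.755% of genes (93 of 12326) showed. The reverse pattern was shown by 0 receptors and 0.503% of genes. Ccrl2 was among the 10.4% of genes called higher under both titles, and Cxcr4 and Cx3cr1 among the 8.9% called lower under both. The KO response minus the WT response was −6.56 log2 units for Ccr1 (95% Poisson interval −7.22 to −5.89), −5.51 for Ccr2 (−6.26 to −4.77), −4.21 for Ccr3 (−4.68 to −3.75) and −1.57 for Cxcr4 (−1.90 to −1.24). A difference of at least 1 in that direction was found for these 4 of the 6 receptors above 1 CPM, beside 10.2% of genes. In the other direction it was found for 0 receptors, beside 7.62%. For Ccrl2 the difference was −0.82 (−1.13 to −0.50) and for Cx3cr1 1.00 (−1.36 to 3.35), below the threshold or spanning 0. The authors' deposited table, whose test is not named, had adjusted p-values under 0.05 for 4 receptors higher and 2 lower after LPS under the WT title (18.2% of its genes in either direction) and for 1 higher and 4 lower under the KO title (19.2%). For KO against WT the authors' deposited table had 4 higher and 0 lower untreated (0.823%) and 0 higher and 3 lower after LPS (1.59%). Cx3cr1 between untreated libraries, called by the 2-fold rule, had a log2 ratio of −1.32 and an adjusted p of 0.166 in the authors' deposited table.

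**Figure D3:**
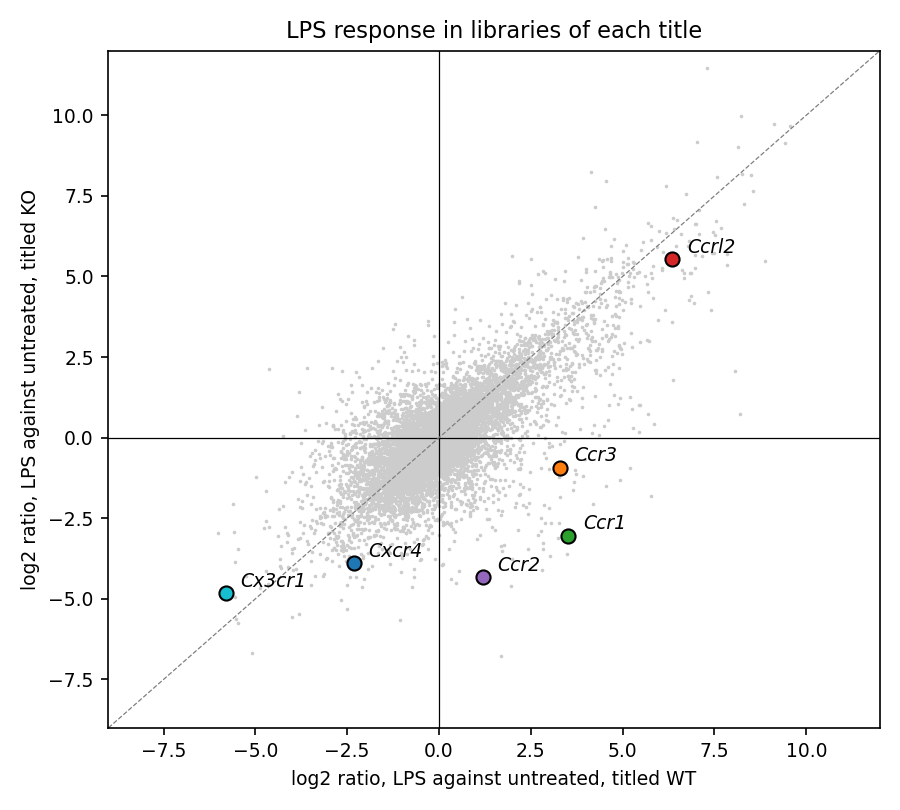
log2 ratio of LPS to untreated (prior count 2) under the WT title (horizontal) and under the KO title (vertical), grey points for the 12326 genes above 1 CPM, coloured points for 6 receptors, with the dashed line where both are equal. Ccrl2 lay close to that line at 6.36 and 5.54, and Ccr1 at 3.52 and −3.04 and Ccr2 at 1.19 and −4.32 lay at the lower right.

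Compared per gene length, in the authors' FPKM, the order of the receptors changed with LPS. In WT untreated Cxcr4 led at 24.3 FPKM (22.8 to 25.8), followed by Cx3cr1 (3.27), Ccrl2 (2.00), Ccr3 (1.00), Ccr2 (0.716), Ccr1 (0.565) and Ccr7 (0.0225). The counting intervals of Ccr3 and Ccr2, and of Ccr2 and Ccr1, overlapped. In KO untreated Cxcr4 led again at 83.4 FPKM (80.9 to 85.9), then Ccr1 at 7.58, while Ccr3 (3.63), Ccrl2 (3.49) and Ccr2 (3.40) overlapped each other in turn and Cx3cr1 had 1.29. Cxcr4 made up 76.2% of the summed FPKM of the 7 receptors in WT untreated and 81.1% in KO untreated. After LPS Ccrl2 took that place, with 171 FPKM and 87.7% of the sum in WT and 175 FPKM and 95.04% in KO. Below it in WT LPS came Ccr3 (10.3), Ccr1 (6.996), Cxcr4 (4.92), Ccr2 (1.70) and Cx3cr1 (0.0389), and no neighbours among these overlapped. In KO LPS Cxcr4 (5.91) came next, then Ccr3 (2.02), Ccr1 (0.954) and Ccr2 (0.167), whose interval overlapped that of Ccr7 (0.0318).

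**Figure D4:**
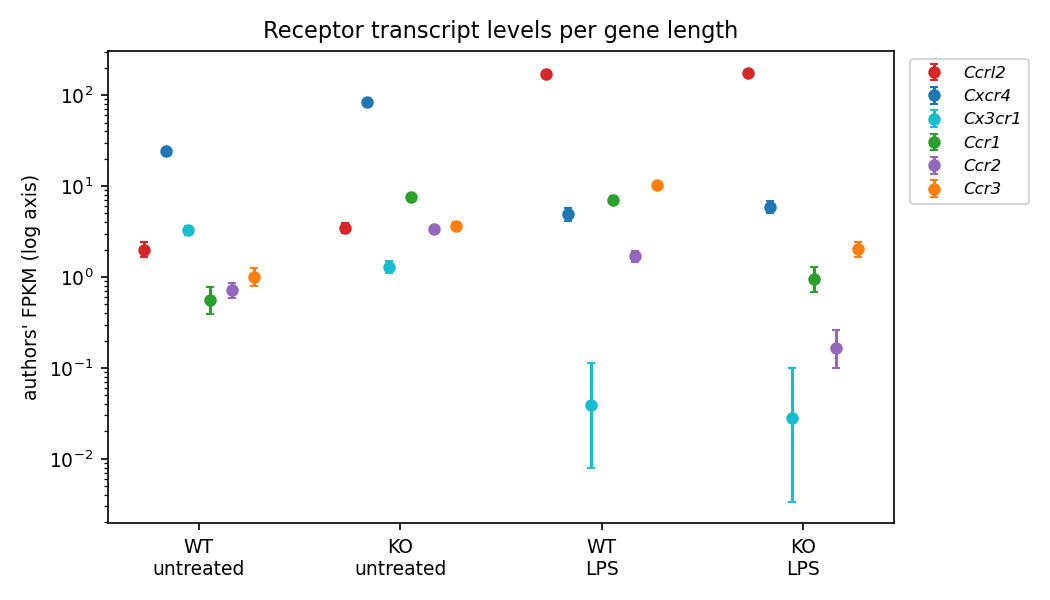
Authors' FPKM (log axis) of 6 receptors in the 4 libraries, with 95% Poisson intervals from the counts. Cxcr4 was the highest in both untreated libraries, at 24.3 and 83.4 FPKM, and Ccrl2 in both LPS libraries, at 171 and 175 FPKM.

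Other genes with the pattern of each receptor were sought as the smallest root mean square (RMS) difference of centred log2 CPM over the 4 libraries, among 9190 protein-coding genes of at least 5 CPM; this describes 4 points per gene. For Ccr1 the nearest were Ctsk, the bone-resorbing protease cathepsin K (RMS difference 0.17), the orphan receptor gene Gprc5b (0.20) and Gng4, a G protein γ subunit gene (0.27). Ctsk stood at 3.36, 34.3, 32.5 and 3.92 CPM in WT untreated, KO untreated, WT LPS and KO LPS. For Ccr3 they were Pde5a, a cGMP phosphodiesterase gene (0.14), the macrophage elastase gene Mmp12 (0.22) and the adenosine receptor gene Adora2b (0.26). For Ccr2 they were Tgfb3 (0.33), Cd300lf (0.41) and Lhfpl2 (0.47). Ccrl2 was nearest to the collagenase gene Mmp13 (0.14), the phosphatase gene Dusp2 (0.15) and Tnfaip3, which encodes the NF-κB inhibitor A20 (0.19). Cxcr4 was nearest to Sbk1 (0.36), Lpar6 (0.43) and Zfp36l1 (0.46), and Cx3cr1 to Fut7 (0.20), Cnr2 (0.46) and Cebpa (0.47). Among the receptors themselves the closest pair was Ccr1 and Ccr3 (0.82), and Ccr1 was closer to Lyz1 (0.31) than to any other receptor.

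Some markers of other myeloid states moved with Ccr1, Ccr2 and Ccr3 and others went the other way. Their part in the result was not tested. Of 5 monocyte markers 4 were detected. Ly6c2 stood at 0.590, 5.60, 3.61 and 0.428 CPM and Plac8 at 2.27, 22.7, 42.9 and 5.32 CPM in WT untreated, KO untreated, WT LPS and KO LPS, both high in the libraries where Ccr1 was high. F13a1 went the other way, at 17.1, 5.13, 9.08 and 22.2 CPM, as did Fn1 at 8.44, 4.09, 2.91 and 9.55 CPM. Summed monocyte markers were 28.5, 37.7, 58.9 and 37.5 CPM in the same order. Of 8 neutrophil markers 2 were detected. Mmp8 followed the receptors (6.58, 29.4, 19.0 and 3.92 CPM). It made up most of the summed level of all 8, which was 8.30, 31.3, 19.8 and 4.34 CPM. Retnlg had 0 counts and Mpo was at most 1.66 CPM.

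The rest of the receptor family was sparse. Of 16 further chemokine receptor genes looked up, 6 reached 10 counts in a library and 2 averaged at least 1 CPM. Xcr1, the receptor of the chemokine Xcl1, rose with LPS by 4.02 log2 units (edgeR adjusted p = 0.0152). Cxcr3, the receptor of the interferon-induced chemokines, stood at 4.94, 5.13, 1.11 and 0.979 CPM in WT untreated, KO untreated, WT LPS and KO LPS and fell by 2.23 log2 units (edgeR adjusted p = 0.0377). Ccr9, Cxcr6, Cxcr5 and Ccr1l1 had at most 23, 11, 10 and 20 counts in any library. Ccr1l1, which lies between Ccr1 and Ccr3, had 10, 20, 8 and 3 counts in the same order. The 10 others had at most 7 counts in a library, and Ccr6 and Ccr8 had 0 in all 4. Within 300 kb of the cluster, Lztfl1 was highest in WT LPS (17.9, 23.2, 85.7 and 30.0 CPM in the same order), and Fyco1 ranged from 28.2 to 51.8 CPM.

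Most ligands of these receptors were higher after LPS. The ligand list also held Ccl4, a chemokine gene that was paired with none of these receptors. Ccl4 rose by 5.97 log2 units (edgeR adjusted p = 0.00459) and is included in the counts and medians below. Of 10 ligand genes above 1 CPM, 8 were called higher under the WT title and 0 lower, beside 15.4% and 15.0% of all genes. Under the KO title 6 were called higher and 1 lower, beside 14.6% and 17.8%. Their median log2 ratios were 4.01 and 3.75, against −0.01 and −0.07 over all genes. Between untreated libraries 3 ligands were higher under the KO title and 0 lower, beside 3.16% and 2.03% of all genes. After LPS 0 were higher and 3 lower, beside 3.42% and 4.81%. In edgeR's test 6 of 11 fitted ligands rose and 0 fell, beside 9.35% and 5.14% of all genes. Ccl5, a ligand of Ccr1 and Ccr3, stood at 3.45, 7.70, 1112 and 1182 CPM in WT untreated, KO untreated, WT LPS and KO LPS. Ccl3 (49.5, 35.7, 537 and 572 CPM) and the Ccr2 ligand Ccl12 (2.04, 2.53, 117 and 185 CPM) were likewise high in both LPS libraries. Ccl8, another monocyte chemoattractant, was the ligand called lower under the KO title: at 32.8, 201, 239 and 47.1 CPM it was high in KO untreated and WT LPS, as Ccr1 was. Ccl9, a ligand of Ccr1, stood at 323, 523, 1393 and 615 CPM and Ccl6 at 264, 427, 494 and 337 CPM. The fractalkine gene Cx3cl1 was 19.1 to 27.2 CPM and was called in no comparison, while its receptor was nearly absent after LPS. Cxcl12, the ligand of Cxcr4, had at most 16 counts in a library, Ccl11 at most 3, and Rarres2, which encodes chemerin, at most 1.

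**Figure D5:**
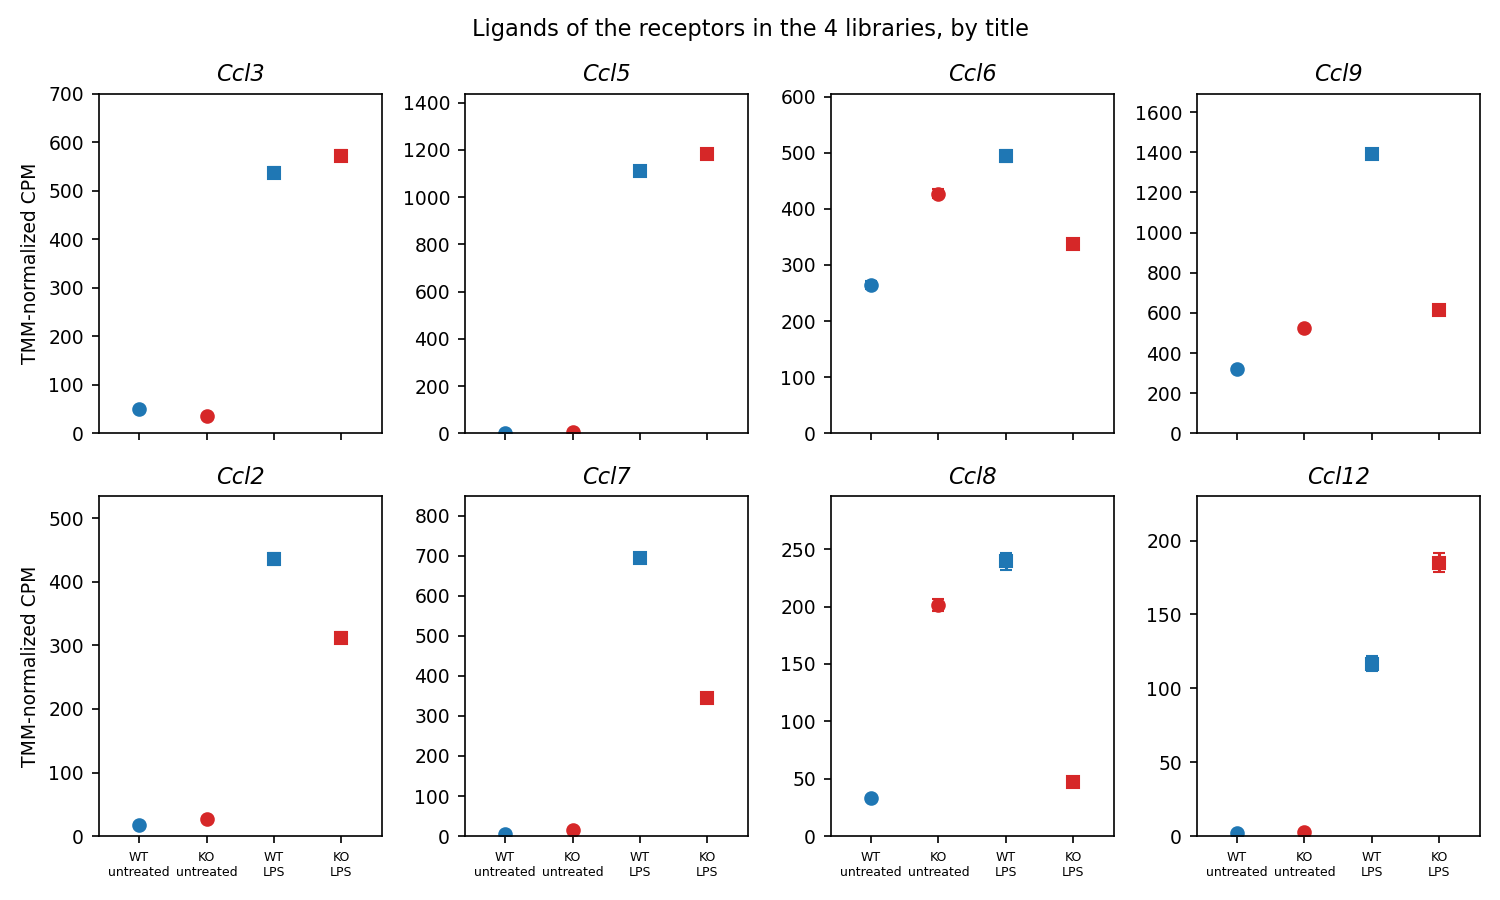
TMM-normalized CPM (linear axes from 0) of 8 ligand genes in the 4 libraries by title, circles untreated and squares LPS, blue WT and red KO, with 95% Poisson intervals mostly hidden by the symbols. Ccl3, Ccl5, Ccl2, Ccl7 and Ccl12 were high in both LPS libraries, whereas Ccl8 was high in KO untreated and WT LPS.

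Other chemoattractant receptors of the same class gave 5 higher and 2 lower of 13 above 1 CPM under the WT title, beside 15.4% and 15.0% of all genes. Under the KO title 4 were higher and 3 lower, beside 14.6% and 17.8%, and the median log2 ratios were 0.44 and −0.14. In edgeR's test 4 of 14 rose and 1 fell, beside 9.35% and 5.14% of all genes, so that the lower counts were near the share of all genes. The formyl peptide receptor genes Fpr1 (85.2, 67.2, 398 and 409 CPM in WT untreated, KO untreated, WT LPS and KO LPS) and Fpr2 (22.1, 21.6, 189 and 201 CPM) rose, as did Fpr3 and the complement C5a receptor gene C5ar1, with edgeR adjusted p of 0.00907, 0.00520, 0.0437 and 0.0474. Gpr183, the oxysterol receptor gene, had 79, 115, 0 and 2 counts in that order and fell by 5.90 log2 units (edgeR adjusted p = 0.0205). Of 24 genes that act below chemokine receptors, 2 rose and 1 fell in edgeR's test, no larger a share than the 9.35% and 5.14% of all genes, and their median log2 ratios were 0.03 under the WT title and 0.22 under the KO title. Pik3r5, a regulatory subunit of PI3Kγ, rose by 1.48 log2 units (edgeR adjusted p = 0.0344), and Rgs16, a brake on G protein signalling, by 2.91 (edgeR adjusted p = 0.0366). Plcb2, a phospholipase C gene, fell by 1.12 log2 units (edgeR adjusted p = 0.0309). Rgs1, another such brake, stood at 12.1, 66.0, 248 and 69.6 CPM, higher in KO than in WT untreated and lower after LPS, as Ccr3 was. The G protein gene Gnai2 stayed between 895 and 998 CPM.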

How the data were processed

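RNA sequencing of polyadenylated RNA from 4 libraries was used, 1 for each title and treatment, grouped by title. HISAT2 2.0.5 and the build mm10 are named in the submitters' processing notes. The authors' deposited table gave read counts per gene and the authors' FPKM, per the file headers; no counting program or strand setting was found in the sources used here. The library sizes behind the deposited FPKM were 1.28, 1.20, 0.817 and 0.818 times the count totals (WT, KO, WT LPS, KO LPS). The authors' deposited log2 folds, p-values and adjusted p-values for comparisons of 2 libraries were read as given, per the file headers. Another 8 per-sample columns of the table were left aside.

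Counts were scaled by TMM (factors 1.25, 1.16, 0.820 and 0.840). The additive model used edgeR 4.0.16 with filterByExpr and TMM on the kept genes, and was tested on simulated data. Those data held no genotype effect and no departure from additivity, so they did not check the model for genes such as Ccr1. DESeq2 1.42.0 and limma 3.58.1 (voom) refitted the additive model, in R 4.3.3. Python 3.11.15, SciPy 1.17.1 and pandas 2.3.3 gave intervals and ratios. Named from the lists were genes past a threshold with the largest ratios, detected family members and best known ligands; all other list genes named, and Lztfl1 and Fyco1, were chosen after their values were seen. Genes like a receptor were its 3 nearest. Ccl19 and Ccl21a, symbols each carried by more than 1 identifier, were left out. Another 3 genes of the lists are not reported here. The receptors and lists were chosen with earlier results of these data known. Alternatives were other scalings, prior counts, filters, folds, FPKM with pseudocounts of 1 and 0.1, and other tools.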

Additional observations from a re-analysis of the deposited data

Results flagged for a closer look

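The LPS responses of Ccr1 and Ccr2 pointed in opposite directions under the 2 titles, and each passed the 2-fold rule both times. For Ccr1 the log2 response was 3.52 under the WT title and −3.04 under the KO title. For Ccr2 it was 1.19 under the WT title and −4.32 under the KO title. The Ccr2 call under the WT title was lost with library totals, at 3-fold and in FPKM with a pseudocount of 1. With 1 library per group the difference between the titles was not tested against replicates. The opposite directions also rest on titles that are open to doubt, since Lyz1 joined KO untreated with WT LPS. In those libraries Ccr1 stood at 22.3 and 19.7 CPM and Ccr2 at 23.9 and 11.4 CPM. In WT untreated and KO LPS, which Lyz1 also joined, Ccr1 stood at 1.63 and 2.63 CPM and Ccr2 at 4.94 and 1.10 CPM. Which pairing is right was not tested.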

How the results depend on the processing

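No paired analysis was possible because each group held 1 library and the labels give no replicate number, and for the same reason no library could be left out of a comparison. Among alternative values for the counts of receptors called or passing, 109 stayed within 1.5 times the reported count. The exceptions concern the 1 receptor called lower for KO against WT untreated, Cx3cr1: the count was 0 at 3-fold and 0 in FPKM with a pseudocount of 1. No called ratio and no effect that passed changed sign under the alternatives run; signs that did change were those of Ccrl2 for KO against WT after LPS (near 0), the Ccr1 LPS effect and the Ccr2 genotype title effect, none of which was called. The LPS effects that passed kept adjusted p between 4.06e-58 and 0.00900 for Ccrl2, 2.21e-13 and 0.00900 for Cx3cr1 and 1.34e-13 and 0.0170 for Cxcr4 over 7 fits, the smallest from DESeq2 for Ccrl2 and from edgeR without the filter for the others. Over all genes, 1308 rose and 719 fell with LPS in the edgeR fit, against 1999 and 1798 without the filter, 3133 falling with library totals and 1525 falling at an adjusted p of 0.1. For the genotype title effect 0 genes passed, and 2 without the filter. FPKM with a pseudocount of 1 shrank the ratios of low genes: Cx3cr1 after LPS under the WT title had a log2 ratio of −2.04 in place of −5.81. Depth limits Ccr7 throughout and Cx3cr1 after LPS.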
